A study of Mus musculus with 6 samples.

Results

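Bone morphogenetic proteins (BMPs) signal through a small set of receptors and Smad proteins, and 10 genes of this pathway were followed here among the 26264 genes counted. They were chosen by name: the type I receptors Bmpr1a, Bmpr1b and Acvr1, the type II receptor Bmpr2, the ligands Bmp4, Bmp6 and Bmp7, the receptor-regulated Smads Smad1 and Smad9, and the inhibitory Smad Smad6. All 10 were in the table, and 7 had enough counts to be tested. Bmp4, Bmp6 and Smad6 had near-zero counts in every library.

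The libraries came from neural stem cell cultures of the adult mouse spinal cord, on a C57BL6J background, that carried a PDGFRa-GFP reporter, in which green fluorescence follows the Pdgfra gene. The growth medium held EGF and FGF2, and cells were sorted by fluorescence. The sort gave 3 libraries of GFP-positive cells (GFPpos), given the genotype PDGFRaGFP/+ in the labels, and 3 of GFP-negative cells (GFPneg), given the genotype PDGFRaGFP/-. A GFPpos and a GFPneg library share each of the numbers 314, 315 and 316, which are replicates 1, 2 and 3 here. The study concerns the oligodendrocyte program of adult spinal cord stem cells. The animals' age and number and the meaning of the shared numbers are not stated in the labels.

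In this pathway a ligand brings together type I and type II receptors, and the type II kinase activates the type I kinase. The type I kinase then phosphorylates the receptor-regulated Smads, which enter the nucleus and switch on targets such as the Id genes, while inhibitory Smads and secreted antagonists such as noggin damp the signal. In the rodent central nervous system BMP signalling is known for favouring astrocytes over oligodendrocytes when glial precursors differentiate.

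Total counts lay between 36846570 and 45207335 in GFPpos libraries and between 31067850 and 32869705 in GFPneg libraries. Pdgfra (Entrez 18595), the gene behind the sort, stood at 229 ± 21.3 CPM in GFPpos and 13.7 ± 5.62 CPM in GFPneg cells (SD, n = 3 each), where CPM is the share of a library's counts in parts per 1000000, with TMM factors applied. All 6 oligodendrocyte precursor markers were called higher in GFPpos cells, and all 6 astrocyte markers were called lower. Summed oligodendrocyte precursor marker levels lay between 3876 and 4078 CPM in GFPpos and between 2105 and 2350 CPM in GFPneg libraries. Most of the sum in GFPneg cells came from Olig1 and Olig2, at 1488 and 543 CPM (2108 and 861 CPM in GFPpos cells). Cspg4 was at 183 CPM in GFPneg and 404 CPM in GFPpos cells. Gpr17 and Sox10, like Pdgfra, were far lower in GFPneg cells, at 21.0 and 6.13 CPM, against 303 and 59.5 CPM in GFPpos cells. Summed astrocyte marker levels lay between 278 and 349 CPM in GFPpos and between 2330 and 2618 CPM in GFPneg libraries. Of 5 neural stem cell markers, 4 were lower and 1 was higher, with summed levels of 2268 to 2392 CPM in GFPpos and 5700 to 6514 CPM in GFPneg libraries. Other cell types left little signal: the 4 microglial markers summed to at most 1.01 CPM in GFPpos and 2.65 CPM in GFPneg libraries, the 4 endothelial markers to at most 2.02 CPM in GFPpos and 2.01 CPM in GFPneg libraries, and the 4 fibroblast and mural markers to at most 0.327 CPM in GFPpos and 1.72 CPM in GFPneg libraries. The 4 neuronal markers summed to 11.6 to 14.3 CPM in GFPpos and 2.85 to 5.13 CPM in GFPneg libraries, and the 4 mature oligodendrocyte markers to 18.0 to 23.4 CPM in GFPpos and 16 to 18.8 CPM in GFPneg libraries. Slc17a6, a marker of excitatory neurons, and Cldn5, an endothelial marker, had a count of 0 in every library. In bulk libraries, fewer cells of a type and less RNA per cell cannot be told apart.

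Of the 7 tested genes, Bmpr1b, Bmpr1a and Smad9 were lower in GFPpos cells and Smad1 was higher. Bmpr2, Acvr1 and Bmp7 did not pass the test (edgeR quasi-likelihood, Benjamini-Hochberg adjusted p below 0.05 over 14554 tested genes). The 4 of 7 called stand against 55.4% of all tested genes called in this comparison, the 3 lower against 29.2%, and the 1 higher against 26.1%. These shares are near the background, so the number of calls is no result about the pathway. The median log2 fold change (GFPpos minus GFPneg) was -0.31 over the 7 genes and -0.0058 over all tested genes. What set the genes apart from each other was the size of the difference, which ranged from a log2 fold change of -3.18 for Bmpr1b to 0.42 for Smad1.

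**Figure D1:**
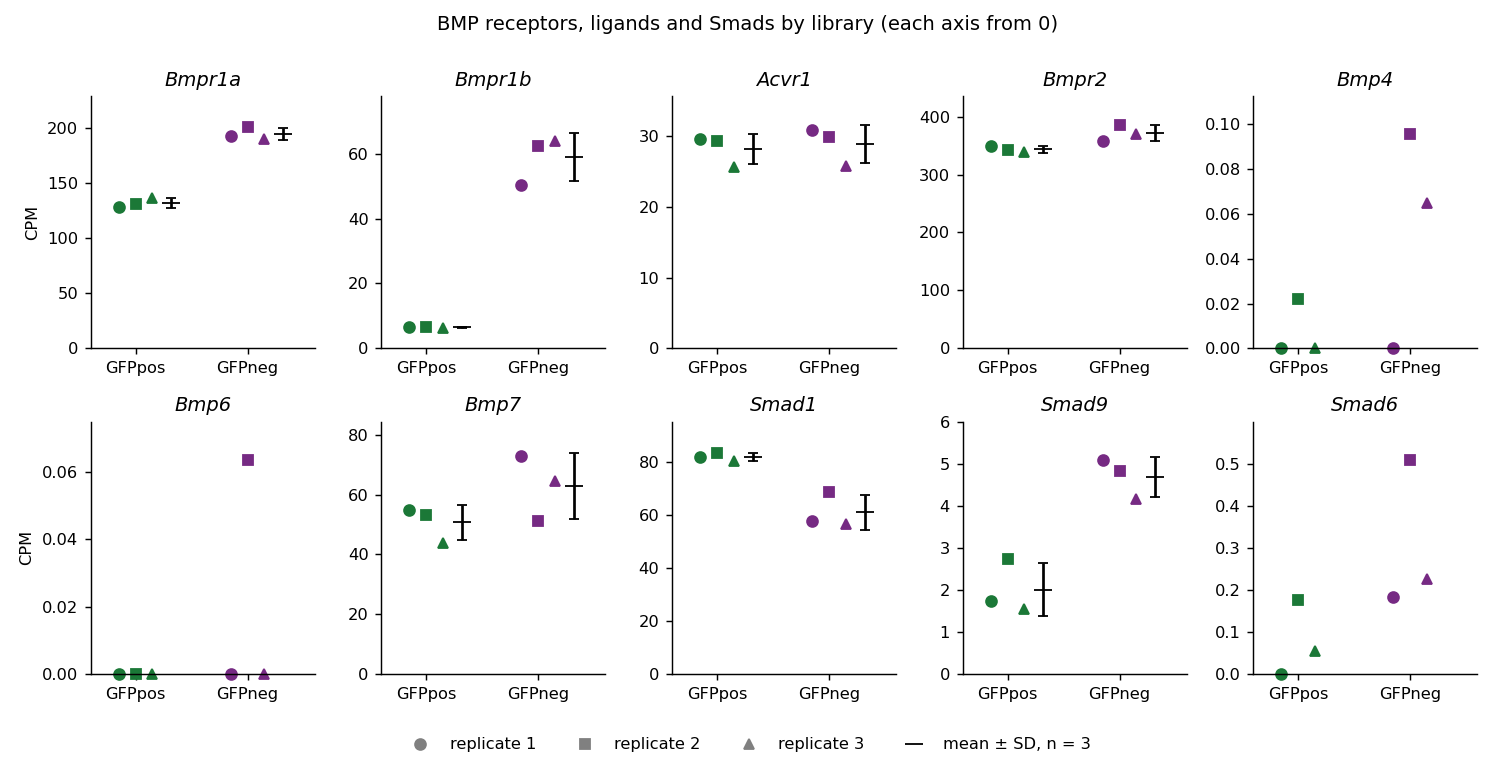
Level in each library of the 10 genes, in CPM on the vertical axis of each panel, with GFPpos libraries left of GFPneg libraries, a marker shape for each replicate number, and bars for the mean ± SD (n = 3) of the 7 tested genes. Bmpr1b lies between 6.34 and 6.65 CPM in GFPpos and between 50.4 and 63.9 CPM in GFPneg libraries, while Bmp4, Bmp6 and Smad6 stay at or below 0.510 CPM in every library.

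The largest difference among the 7 tested genes was that of a type I receptor. Bmpr1b (Entrez 12167), which encodes the BMP receptor kinase also called ALK6, was at 6.65, 6.51 and 6.34 CPM in GFPpos replicates 1, 2 and 3, against 50.4, 62.4 and 63.9 CPM in the GFPneg ones. The groups were far apart, with an SD of 0.155 CPM in GFPpos and 7.39 CPM in GFPneg libraries. The GFPpos SD is below the counting error of 233 to 295 counts, so it does not measure how tight that group is. The log2 fold change was -3.18 (SE 0.11, edgeR adjusted p = 1.64e-06), a level 9.06-fold higher in GFPneg cells. Raw counts stood at 233 to 295 in GFPpos and 1663 to 1973 in GFPneg libraries, so the value does not rest on few reads. Lower astrocyte and stem cell markers go with it in the same libraries, and their part in the result was not tested.

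Bmpr1a (Entrez 12166), the widely expressed type I receptor also called ALK3, was at 129, 131 and 137 CPM in GFPpos and 193, 201 and 190 CPM in GFPneg libraries. Each GFPpos library was below each GFPneg library, and the log2 fold change was -0.56 (SE 0.05, edgeR adjusted p = 5.53e-05). In the annotation an antisense gene, Gm17110, covers 290 of the 6351 exonic bases of Bmpr1a, and the labels do not state the strand setting of the counting. Acvr1 (Entrez 11477), the type I receptor also called ALK2, was at 29.5, 29.3 and 25.6 CPM in GFPpos and 30.8, 29.8 and 25.8 CPM in GFPneg libraries. The groups overlapped and replicate 3 was the lowest library of both. The log2 fold change was -0.03 (SE 0.10, edgeR adjusted p = 0.787), and its sign turned to 0.03 without GFPpos replicate 3.

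The balance between the type I receptors Bmpr1b and Bmpr1a was compared within each library, where library size cancels. The log2 ratio of Bmpr1b to Bmpr1a counts was -4.27, -4.33 and -4.43 in GFPpos replicates and -1.94, -1.69 and -1.57 in GFPneg ones. The mean was -4.34 ± 0.08 in GFPpos and -1.73 ± 0.19 in GFPneg cells (SD, n = 3 each), a difference of -2.61 on the log2 scale, or 6.11-fold. The groups did not overlap, and the two-sided exact permutation test gave p = 0.1, the smallest that 3 libraries against 3 allow. Per kilobase of exon, Bmpr1a stood 19.1 ± 1.06 times above Bmpr1b in GFPpos cells and 3.13 ± 0.41 times above it in GFPneg cells (SD, n = 3 each). With the longest protein-coding transcript as the length, these ratios were 18.3 ± 1.01 in GFPpos and 3.00 ± 0.40 in GFPneg cells.

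**Figure D2:**
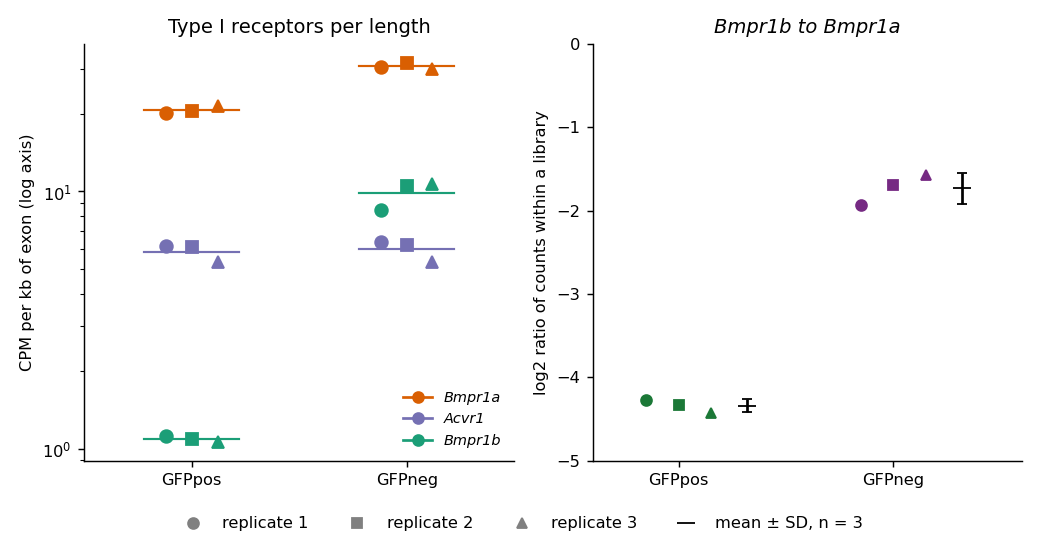
Left, the 3 type I receptors in CPM per kilobase of exon on a log axis, with a point for each library and a line at the group mean. Right, the log2 ratio of Bmpr1b to Bmpr1a counts within each library, with bars for the mean ± SD (n = 3). Bmpr1b stands above Acvr1 in GFPneg libraries and below it in GFPpos libraries.

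Bmpr2 (Entrez 12168), the type II receptor that pairs with all of these, was at 350, 342 and 338 CPM in GFPpos and 359, 386 and 371 CPM in GFPneg libraries. Each GFPpos library lay below each GFPneg library by a small margin. The log2 fold change of -0.11 (SE 0.05) did not pass the test (edgeR adjusted p = 0.0947). Groups that did not overlap were found for 5 of the 7 tested genes, against 64.2% of all tested genes.

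The starts of Bmpr1a and Bmpr1b differ in base composition. RefSeq windows of 250 bases upstream of the start were read for 9 of the 10 genes, in build GRCm38.p6, while the counts were made on mm39. They are shown for the pair of receptors whose balance differed between the fractions. Capitals mark GGCGCC, a GC-rich element bound by BMP Smads, and GTCTG, a Smad-binding element, each searched on both strands (CAGAC is GTCTG on the other strand). The Bmpr1a window is chr14:34502547-34502796 and the Bmpr1b window, the farthest upstream of 3, is chr3:141982265-141982514, both on the minus strand.
Bmpr1a: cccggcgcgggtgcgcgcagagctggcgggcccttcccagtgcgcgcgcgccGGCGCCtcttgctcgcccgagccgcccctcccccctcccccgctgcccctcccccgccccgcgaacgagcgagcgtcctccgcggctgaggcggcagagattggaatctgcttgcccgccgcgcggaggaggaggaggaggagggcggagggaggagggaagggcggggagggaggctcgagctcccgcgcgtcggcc
Bmpr1b: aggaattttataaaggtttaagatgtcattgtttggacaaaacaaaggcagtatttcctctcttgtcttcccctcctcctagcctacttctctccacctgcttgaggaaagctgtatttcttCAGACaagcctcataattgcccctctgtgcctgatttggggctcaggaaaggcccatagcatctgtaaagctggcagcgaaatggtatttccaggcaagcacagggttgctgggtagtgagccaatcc
The Bmpr1a window is 78.8% G and C with 36 CpG dinucleotides, and the Bmpr1b window is 46.8% G and C with 1 CpG, against medians of 52.4% and 6 over 32851 windows of all genes. The other Bmpr1b windows, which overlap each other, are 52.8% and 56.4% G and C with 5 CpGs each. GGCGCC occurs in the Bmpr1a window and in none of the 3 Bmpr1b windows, and 9.6% of all windows hold it. GTCTG occurs in 2 of the Bmpr1b windows and not in the Bmpr1a window, and 42.2% of all windows hold it. A match is a description of the letters and no sign of binding.

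Among the ligands, only Bmp7 had more than a handful of counts. Bmp7 (Entrez 12162), also known as osteogenic protein, was at 54.9, 53.2 and 43.9 CPM in GFPpos and 72.9, 51.3 and 64.4 CPM in GFPneg libraries. The groups overlapped through GFPneg replicate 2, the lowest of its group. The log2 fold change was -0.31 (SE 0.14, edgeR adjusted p = 0.0831). With the replicate number as a block it was -0.30 and passed (edgeR adjusted p = 0.0427), and without GFPneg replicate 2 it was -0.43 (edgeR adjusted p = 0.00532). GFPneg replicate 2 stood apart in other genes, with the astrocyte gene Aldh1l1 at 121 CPM, while replicates 1 and 3 of that fraction had 15.2 and 26.9 CPM, and the part of this in the Bmp7 value was not tested.

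Bmp4 (Entrez 12159), a ligand that drives astrocyte differentiation of cultured precursors, had 0, 1 and 0 counts in GFPpos and 0, 3 and 2 in GFPneg libraries. The ratio of the summed counts, scaled for depth, was 0.160 (exact 95% interval 0.00339 to 1.43, counting error only), so a difference was not detectable at this depth. Bmp6 (Entrez 12161), a close relative of Bmp7, had 0 counts in each GFPpos library and 0, 2 and 0 in GFPneg libraries. A count of 0 allows up to 0.0662 to 0.0817 CPM in these GFPpos libraries, 3 counts being taken as the limit. Bmp4 shares 89 exonic bases with Gm15217, which had no counts, and Bmp6 shares 224 with Txndc5 on the opposite strand, which had 2034 to 2789 counts per library.

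The receptor-regulated Smads Smad1 and Smad9 differed in opposite directions, and Smad5, given further below, was lower in GFPpos cells like Smad9. Smad1 (Entrez 17125), a receptor-regulated Smad, was at 81.7, 83.5 and 80.5 CPM in GFPpos and 57.8, 68.6 and 56.7 CPM in GFPneg libraries. Every GFPpos library was above every GFPneg library, and the log2 value was 0.42 (SE 0.08, edgeR adjusted p = 0.00236). Smad1 was the only one of the 7 tested genes called higher in GFPpos cells, and it was so under each of the 16 alternatives, with values between 0.38 and 0.53.

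Smad9 (Entrez 55994), the receptor-regulated Smad also called Smad8, was at 1.74, 2.74 and 1.55 CPM in GFPpos and 5.10, 4.84 and 4.18 CPM in GFPneg libraries. The groups did not overlap, and GFPpos replicate 2 was the highest of its group. The log2 fold change was -1.22 (SE 0.24, edgeR adjusted p = 0.00318). The call was lost without replicate 1 (log2 fold change -1.06, edgeR adjusted p = 0.0514). Per kilobase of exon, Smad1 was 36.9 ± 9.60 times above Smad9 in GFPpos and 11.2 ± 1.27 times above it in GFPneg cells (SD, n = 3 each). These ratios were 61.3 ± 15.9 in GFPpos and 18.5 ± 2.11 in GFPneg cells with the longest protein-coding transcript as the length.

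The upstream windows of both genes are shown because their transcripts changed in opposite directions. Smad1 is at chr8:79399429-79399678 on the minus strand and Smad9 at chr3:54755332-54755581 on the plus strand of GRCm38.p6, with the same elements in capitals.
Smad1: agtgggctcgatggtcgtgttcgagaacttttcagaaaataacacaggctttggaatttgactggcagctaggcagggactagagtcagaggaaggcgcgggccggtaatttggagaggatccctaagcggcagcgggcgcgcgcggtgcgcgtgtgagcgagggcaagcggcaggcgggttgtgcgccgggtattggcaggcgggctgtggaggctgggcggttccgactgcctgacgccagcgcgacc
Smad9: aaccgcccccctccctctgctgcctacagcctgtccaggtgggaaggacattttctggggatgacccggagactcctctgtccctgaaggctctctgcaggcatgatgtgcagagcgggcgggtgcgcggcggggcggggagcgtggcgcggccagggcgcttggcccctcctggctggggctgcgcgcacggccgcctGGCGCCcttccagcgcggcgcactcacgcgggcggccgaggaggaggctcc
They hold 25 and 24 CpGs. GGCGCC occurs in the Smad9 window, and neither element occurs in the Smad1 window.

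Smad6 (Entrez 17130), an inhibitory Smad that is itself a BMP target, had 0, 8 and 2 counts in GFPpos and 6, 16 and 7 in GFPneg libraries. Replicate 2 was the highest in both fractions. The 10 counts in GFPpos and 29 in GFPneg cells gave a depth-scaled ratio of 0.276 (exact 95% interval 0.120 to 0.583, counting error only). With no low-count filter the edgeR adjusted p was 0.138. The log2 ratio of Smad6 to Smad1, with 0.5 counts added, was -10.5 ± 1.9 in GFPpos and -7.70 ± 0.60 in GFPneg cells (SD, n = 3 each), a difference of -2.82 (two-sided exact permutation p = 0.1, the smallest possible). That difference was -1.81 without GFPpos replicate 1, the library with 0 counts, -3.68 without GFPpos replicate 2 and -2.08 with 2 counts added.

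Compared per kilobase of exon, the order of levels differed between the fractions. In GFPpos cells Bmpr1a was at 20.8 ± 0.65, Bmpr2 at 19.1 ± 0.34, Smad1 at 13.1 ± 0.24, Bmp7 at 12.6 ± 1.48, Acvr1 at 5.83 ± 0.45, Bmpr1b at 1.09 ± 0.03 and Smad9 at 0.375 ± 0.119 CPM per kb (SD, n = 3 each). By this length, Smad1 and Bmp7 did not differ beyond their spread. In GFPneg cells Bmpr1a was at 30.6 ± 0.88, Bmpr2 at 20.7 ± 0.76, Bmp7 at 15.6 ± 2.71, Bmpr1b at 9.88 ± 1.24, Smad1 at 9.75 ± 1.05, Acvr1 at 5.96 ± 0.55 and Smad9 at 0.877 ± 0.088 CPM per kb. By this length, Bmpr1b and Smad1 did not differ there beyond their spread. The order depended on the length used. With the longest protein-coding transcript, the levels in GFPpos cells were 26.6 ± 0.47 for Bmpr2, 22.2 ± 0.70 for Bmpr1a, 21.7 ± 0.40 for Smad1 and 13.8 ± 1.62 CPM per kb for Bmp7 (SD, n = 3 each), so that Bmpr2 stood above Bmpr1a and Smad1 above Bmp7 beyond their spread, while Bmpr1a and Smad1 did not differ beyond theirs. In GFPneg cells they were 32.7 ± 0.94 for Bmpr1a, 28.8 ± 1.06 for Bmpr2, 17.1 ± 2.97 for Bmp7, 16.2 ± 1.75 for Smad1 and 11.02 ± 1.38 CPM per kb for Bmpr1b, so that Smad1 stood above Bmpr1b beyond their spread. With both lengths, the mean of Acvr1 was above that of Bmpr1b in GFPpos cells and below it in GFPneg cells, and Smad9 was the lowest of the 7 tested genes. With the longest transcript the margin in GFPneg cells was narrow, at 8.75 ± 0.81 for Acvr1 against 11.02 ± 1.38 CPM per kb for Bmpr1b.

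The genes whose pattern over the 6 libraries was most like that of Bmpr1b were BC064078, AW011738 and Gabra4, a GABA-A receptor subunit. Their log2 CPM, centred on the mean, differed from that of Bmpr1b by a root mean square of 0.128, 0.141 and 0.148. Gabra4 was at 2.45 ± 0.33 CPM in GFPpos and 25.0 ± 5.07 CPM in GFPneg cells (SD, n = 3 each).

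Other genes of the pathway, 44 in 5 lists, were read from the same fit. Of the 33 that were tested, 11 were higher and 12 lower in GFPpos cells, with a median log2 fold change of -0.19. As a share this is higher than the background of 55.4% called, and no test of that difference was made. The 11 untested genes stayed at or below 1.13 CPM in every library.

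Among other ligands, 3 of 9 were tested and only Gdf11 was called, against 55.4% of all tested genes. Gdf11, a ligand of activin-type receptors, was at 100 ± 2.79 CPM in GFPpos and 71.1 ± 3.00 CPM in GFPneg cells (SD, n = 3 each). Bmp3, a ligand that opposes other BMPs, was at 36.6 ± 10.8 CPM in GFPpos and 43.6 ± 10.9 CPM in GFPneg cells, and Bmp2 was at 0.466 ± 0.268 CPM in GFPpos and 0.577 ± 0.289 CPM in GFPneg cells. Neither passed (edgeR adjusted p = 0.391 and 0.674), although Bmp3 did without replicate 1 (edgeR adjusted p = 0.0421, log2 fold change -0.65).

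Of 6 tested receptors and co-receptors outside the 10 genes, 4 were higher and 1 lower in GFPpos cells. Over all tested genes, 26.1% were higher and 29.2% lower. Acvr2b, a type II receptor shared by activins and BMPs, was at 108 ± 5.46 CPM in GFPpos and 49.1 ± 6.13 CPM in GFPneg cells (SD, n = 3 each; log2 fold change 1.14, SE 0.09). Rgma, a membrane-anchored BMP co-receptor, was at 115 ± 6.97 CPM in GFPpos and 399 ± 62.5 CPM in GFPneg cells, a log2 fold change of -1.80 (SE 0.11). Neo1, which encodes neogenin, a receptor of Rgma, was higher by 0.58 (SE 0.07).

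Of 9 tested extracellular antagonists and modulators, 2 were higher and 3 lower, against 26.1% and 29.2% of all tested genes. The higher ones were noggin and chordin, secreted proteins that bind BMPs. Chordin was picked once its value was known. Nog was at 3.65, 4.19 and 5.39 CPM in GFPpos and 1.00, 1.59 and 2.17 CPM in GFPneg libraries (log2 fold change 1.47, SE 0.29, edgeR adjusted p = 0.00329). Chrd was at 8.85, 10.8 and 8.76 CPM in GFPpos and 3.73, 6.47 and 3.60 CPM in GFPneg libraries, higher by 1.05 (SE 0.23), and it lost its call without replicate 1 (edgeR adjusted p = 0.0544). In both genes every GFPpos library lay above every GFPneg one. Fstl1, a secreted follistatin-related protein, was at 10.8 ± 0.46 CPM in GFPpos and 55.0 ± 0.75 CPM in GFPneg cells (SD, n = 3 each). Nbl1, a DAN family antagonist, had a log2 fold change of -0.51. The other lower gene, Chrdl1, was at 6.48 ± 1.62 CPM in GFPpos and 9.38 ± 0.78 CPM in GFPneg cells. Its log2 fold change was -0.54 (SE 0.19, edgeR adjusted p = 0.0441).

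Of 8 intracellular regulators, 2 were higher and 4 lower, against 26.1% and 29.2% of all tested genes. Smad5, a receptor-regulated Smad like Smad1 and Smad9, was at 196, 198 and 198 CPM in GFPpos and 527, 393 and 453 CPM in GFPneg libraries. The log2 fold change was -1.21 (SE 0.10, edgeR adjusted p = 3.19e-05), so that among these 3 Smads only Smad1 was higher. Tob1, which binds BMP Smads, and Ski, a Smad co-repressor, had values of -0.80 and -0.60, while the related co-repressor Skil was higher by 0.93.

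**Figure D3:**
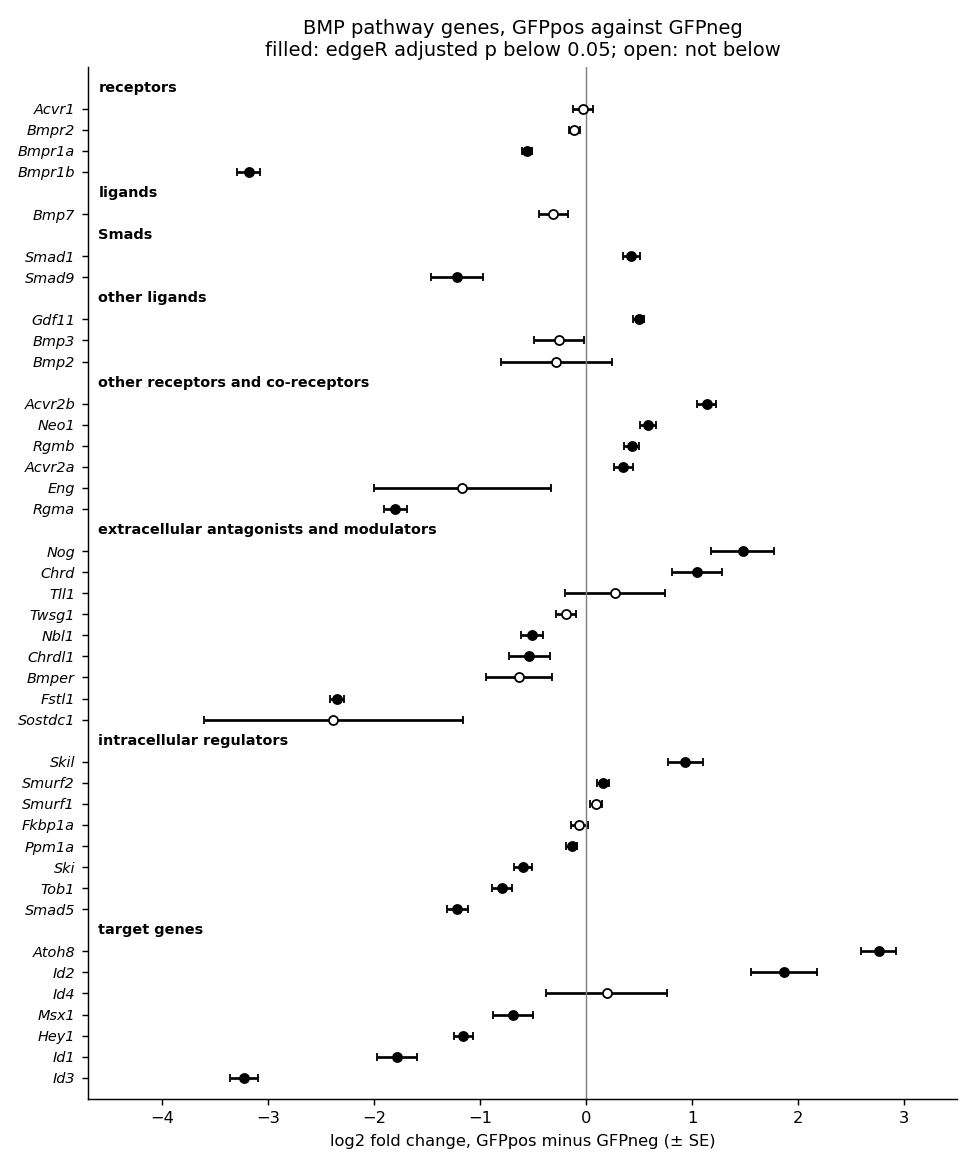
Log2 fold change, GFPpos minus GFPneg, of the 40 tested pathway genes, grouped by role, with bars for the standard error and filled points for an edgeR adjusted p below 0.05. Among the targets, Id3 lies at -3.23 and Atoh8 at 2.76, at opposite ends.

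Target genes did not move together. Of 7 tested, 2 were higher and 4 lower in GFPpos cells, against 26.1% and 29.2% of all tested genes. The list was not tested as a set. Id3, an inhibitor of DNA binding that blocks basic helix-loop-helix factors, was at 4.99, 7.13 and 5.63 CPM in GFPpos and 56.4, 52.5 and 57.8 CPM in GFPneg libraries. Its log2 fold change was -3.23 (SE 0.13; edgeR adjusted p = 2.16e-06). The gap was about as large as that of Bmpr1b. Hey1, a repressor that answers to both BMP and Notch, had a log2 fold change of -1.16 (SE 0.09). Atoh8, a helix-loop-helix factor, was at 8.36, 10.2 and 11.1 CPM in GFPpos and 1.36, 1.59 and 1.43 CPM in GFPneg libraries, higher by 2.76 (SE 0.17, edgeR adjusted p = 8.81e-06).

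The other Id genes were picked once their values were known. Id1 was at 3.81, 3.64 and 2.77 CPM in GFPpos and 11.4, 14.2 and 9.59 CPM in GFPneg libraries, lower with a value of -1.78 (SE 0.19, edgeR adjusted p = 1.24e-04). Id2 went the other way, at 259, 261 and 249 CPM in GFPpos and 45.1, 114 and 52.2 CPM in GFPneg libraries, higher by 1.86 (SE 0.31, edgeR adjusted p = 0.00131). Id4 was at 20.5, 26.7 and 19.5 CPM in GFPpos and 7.89, 41.5 and 9.04 CPM in GFPneg libraries, and its value of 0.19 (SE 0.57) did not pass (edgeR adjusted p = 0.793). GFPneg replicate 2 decided that: without it Id4 was higher by 1.40 (edgeR adjusted p = 6.18e-05). Msx1, a homeobox target, had a log2 fold change of -0.69 (edgeR adjusted p = 0.0146) and fell short of the threshold in 4 of 16 alternatives (edgeR adjusted p up to 0.138, without replicate 3).

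**Figure D4:**
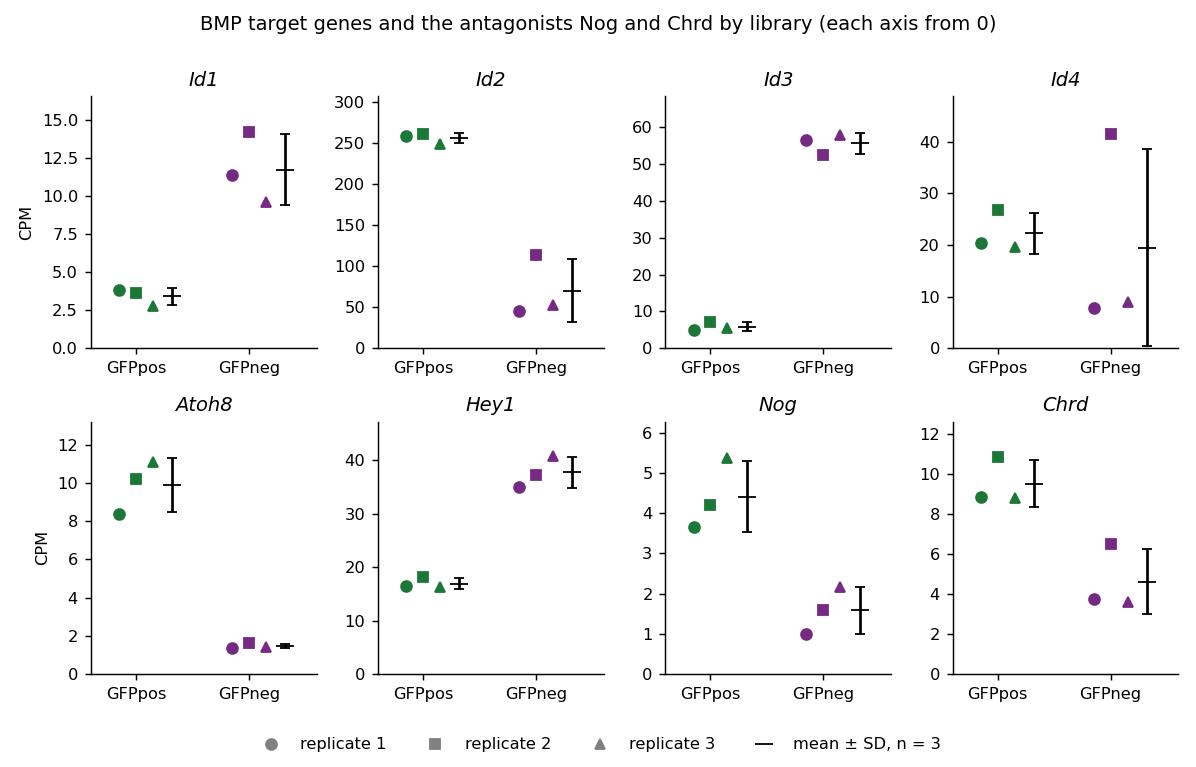
Level in each library, in CPM, of 6 BMP target genes and of the antagonists Nog and Chrd, with GFPpos libraries left of GFPneg libraries, a marker shape for each replicate number and bars for the mean ± SD (n = 3). Id1, Id3 and Hey1 are lower in GFPpos cells, Id2, Atoh8, Nog and Chrd are higher, and Id4 stands at 41.5 CPM in GFPneg replicate 2 alone.

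**Figure D5:**
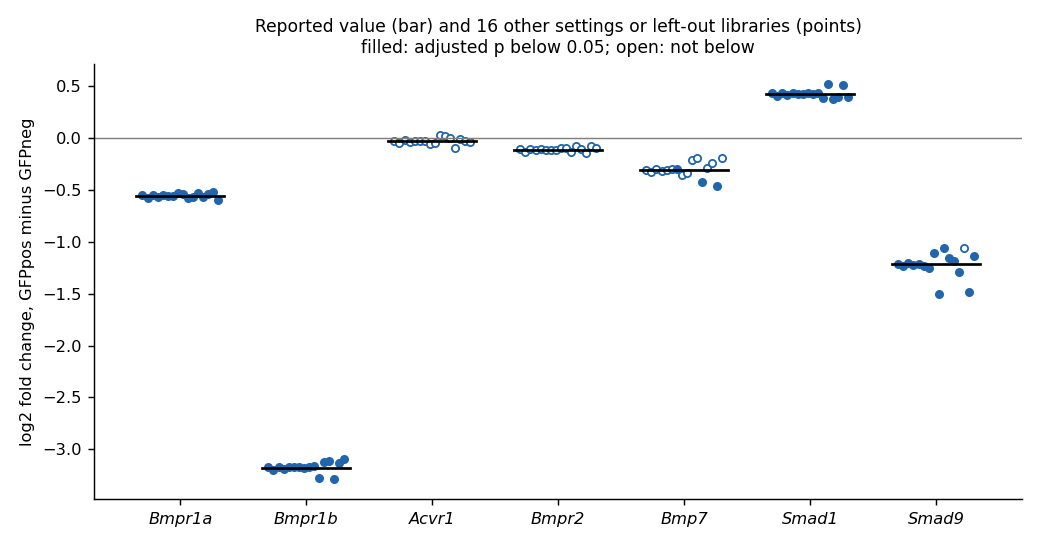
Log2 fold change of the 7 tested genes as reported (bars) and under each of 16 alternatives (points), filled where the adjusted p is below 0.05. Bmpr1a, Bmpr1b and Smad1 keep their call in all 16, Smad9 in 15, Bmp7 gains it in 3, and Bmpr2 and Acvr1 are not called in any.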

How the data were processed

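RNA of 3 GFPpos and 3 GFPneg libraries was extracted with a column kit and made into libraries with the SMART-Seq Stranded kit, per the labels' protocols. The submitters' processing notes list TopHat2 2.1.1 and featureCounts 2.0.0, with SAMtools 1.9, and the genome build as mm39. Annotation and strand setting are not given in those notes. The deposited table holds unnormalized read counts, 1 column per library. The 133 entries with no Entrez number took 0.0506% of the counts in GFPpos and 0.0404% in GFPneg libraries and were kept. Counts can hold PCR copies, so intervals cover counting error only.

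The 10 genes, the pathway lists and the marker lists were chosen with earlier results of these data known, so they are no independent evidence. Groups came from the sample titles. Libraries of a group differed beyond counting noise (chi-square between 9.83 and 34.2 per degree of freedom), and none was merged. As nothing says that they came from separate cultures or animals, p-values cover the spread between these libraries, and this spread may be technical. Deviations of same-numbered libraries correlated across genes at 0.218, 0.355 and 0.159, each above those of differently numbered libraries. For replicate 3 the margin was small, as GFPpos replicate 3 reached 0.128 with a GFPneg library of another number. The numbers were therefore treated as a possible pairing. The main fit is unpaired, as the labels do not state what the numbers mark, and the blocked value is printed where it changes a call.

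Testing used edgeR 4.0.16 in R 4.3.3, with TMM, filterByExpr and the quasi-likelihood F test, adjusted by Benjamini-Hochberg over all 14554 tested genes. Standard errors were taken as the log2 fold change over the root of F. Within-library ratios were compared with a two-sided exact permutation test. Alternatives were RLE and upper-quartile scaling, other filters, DESeq2 1.42.0, limma 3.58.1 voom, the block, and leaving out each library or number. The edgeR fits with TMM, RLE and the block, the voom fit and the DESeq2 fit were tested on simulated data, where DESeq2 called more unchanged genes than edgeR. Exon lengths came from GENCODE M21 and upstream sequences from RefSeq GRCm38.p6, another build than that of the counts. Named genes were the 10 genes, Pdgfra and the 3 genes nearest to Bmpr1b. To these were added the 3 smallest p and the called gene of opposite direction in each list, 30 in all. Id1, Id2, Id4, Msx1, Chrd and Chrdl1 were named after their values were seen.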

Additional observations from a re-analysis of the deposited data

How the results depend on the processing

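Bmpr1a, Bmpr1b and Smad1 kept their direction and call under all 16 alternatives, with log2 fold changes between -0.60 and -0.52, -3.29 and -3.09, and 0.38 and 0.53. The number of the 10 genes called lower was 3, with 2 to 4 when a library or a replicate number was left out, and the number called higher was 1 throughout. With the replicate block, 1 gene was called higher and 4 lower, the 4th being Bmp7 (edgeR adjusted p = 0.0427), and no other call among the 10 genes changed. Over all genes, 3804 were called higher and 4254 lower. Leaving out a library or number gave 2450 to 4169 higher and 2951 to 4468 lower, the lowest of both without replicate 3. In the other pathway lists 8 to 11 were higher and 9 to 13 lower under these fits. The log2 ratio of Bmpr1b to Bmpr1a differed by -2.75 to -2.49 over the left-out libraries, and that of Smad6 to Smad1 by -3.68 to -1.81. Within same-numbered pairs, the exact sign-flip permutation gave p = 0.25, the smallest 3 pairs allow. No value was computed for Smad6 with 0 counts added, as a library had none. The median of all tested genes was -0.0058 with TMM, 0.0012 with RLE and -0.0238 with upper-quartile scaling. Depth limits Bmp4, Bmp6 and Smad6.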
